A study of Arabidopsis thaliana with 6 samples.

Results

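Among 22746 Arabidopsis probe sets, 129 had a mean log2 value at least 3 higher after 30 min at 37 °C in darkness than in unheated dark seedlings, with no overlap between the groups. Each probe set pools several short probes to read 1 transcript or a few, and a log2 difference of 3 is a linear ratio of 8. Of these 129, 28 were left out because the gene symbol or title in the authors' table carried a word of the classical heat response (HSP, HSC, HSF, heat shock, DNAJ, BAG, ROF, HOP, MBF1, DREB, GOLS or ZAT). The other 101 are described here as strong rises without a heat shock word. They were chosen on the heat and control values themselves, so their levels and differences are a description and carry no test. The readout part of the choice took 0.567% of all probe sets, and in 10.4% all heat values lay above all control values whatever the size of the difference.

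Of the 101, 74 had neither a symbol nor a title in the authors' table (73.3%, against 66.3% of all probe sets), so the words could not act on them. A reference gene table (RefSeq names for the TAIR10.1 assembly) gave a heat shock word among the names of 4 of the 101, which were Hop3, CLPB4, RHL41 and STZ, and 97 were left when those names were searched too. ATERDJ3A and DJC66 are J-domain proteins by their names. As general background, the loci that neither table names include small heat shock proteins, an HSP70 and J-domain proteins, so the set does not lie outside the heat shock families and is called by its rule throughout. In all, 45 had a name (24 from the authors' table and 21 from RefSeq), 52 had a locus tag alone, and 4 pointed to several loci or to a gene that could not be matched.

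The plants were Col-0 seedlings, a standard laboratory accession without any transgene or mutation in the labels, grown on solid medium at 23 °C in days of 16 h of light after 72 h of cold (4 °C) in the dark. There were 3 arrays of seedlings at 37 °C for 30 min in darkness (heat) and 3 arrays of dark seedlings with no heat treatment (control). The design text gives an age of 10 days, while the labels give 19, 20 and 21 days to the heat arrays and 16, 17 and 18 days to the control arrays, so group and labelled age cannot be told apart. Nothing says that replicates were separate plants or batches of plants, so a p-value here reflects the spread of these arrays alone, and that spread may be technical.

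Heat unfolds proteins, and plant cells answer within minutes through heat shock transcription factors, which switch on chaperones that hold, refold or disaggregate other proteins. The same treatment reaches genes of protein quality control in the endoplasmic reticulum, of redox defence, of membranes and of the circadian clock. A transcript that is nearly silent at normal temperature can then become one of the most abundant in the seedling.

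Leaf genes for Rubisco small subunit, carbonic anhydrase and a light-harvesting protein (RBCS1A, CA1 and LHCB1.3) lay between the 99.8th and the 100.0th percentile of all probe sets. The root hair genes EXPA7 and COBL9 and the nitrate transporter NRT2.1 lay at the 42.9th to 45.7th percentile, while a shared probe set of the root phosphate transporter PHT1;1 lay at the 86.5th. Flower, seed and pollen markers (AP3, AG, CRA1, OLEO1 and VGD1) lay at or below the 33.8th percentile. Array medians were 2.78, 2.78 and 2.81 on heat replicates 1, 2 and 3, and 2.91, 2.84 and 2.94 on control replicates 1, 2 and 3. Every heat median thus lay slightly below every control median. The Pearson correlation of whole arrays was 0.989 to 0.991 among heat arrays, 0.976 to 0.988 among control arrays and 0.941 to 0.954 between the groups. The number of arrays limits the precision, and fewer cells of a type cannot be told apart from less RNA per cell.

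The differences of the 101 probe sets ran from 3.03 to 9.41 with a median of 4.27. The 28 with a heat shock word had a median of 7.37. A difference of at least 5 was reached by 36 of the 101 and by 21 of those 28. Heat means ran from 4.83 to 11.74 (median 8.05), and 87 of the 101 lay above the 90th percentile of all probe sets. Control means ran from 1.53 to 6.91 (median 3.35), and 40 lay below the median probe set. No detection call was given, so a control value this low cannot be told from background, and the size of such differences depends on that background.

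**Figure D1:**
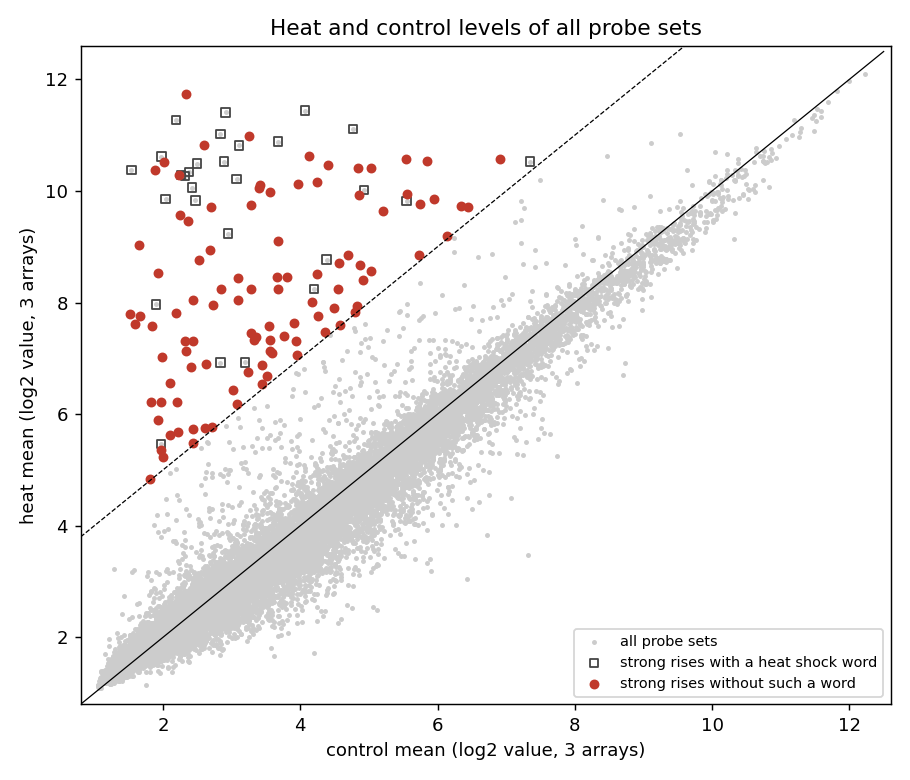
Mean log2 value of every probe set over the 3 heat arrays (vertical axis) against the mean over the 3 control arrays (horizontal axis). Grey points are all probe sets, red circles the 101 strong rises without a heat shock word and open squares the 28 with one. The solid line marks equal levels and the dashed line a difference of 3, above which both sets lie by choice.

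The spread between replicates was small beside these differences. The SD had a median of 0.14 over the heat arrays and 0.28 over the control arrays, and the smallest gap between the lowest heat and the highest control value was 2.11. The control SD was above the heat SD in 73 of the 101, against 62% of the other probe sets. Heat replicate 2 gave the highest of the 3 heat values in 64 of the 101, against 33.6% of the other probe sets. Control replicate 2 gave the lowest control value in 53, against 41.2%. Median levels of the set on heat replicates 1, 2 and 3 were 8.11, 8.20 and 8.08, against 3.38, 3.01 and 3.49 on control replicates 1, 2 and 3. The cause of the position of the replicates numbered 2 was not tested.

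**Figure D2:**
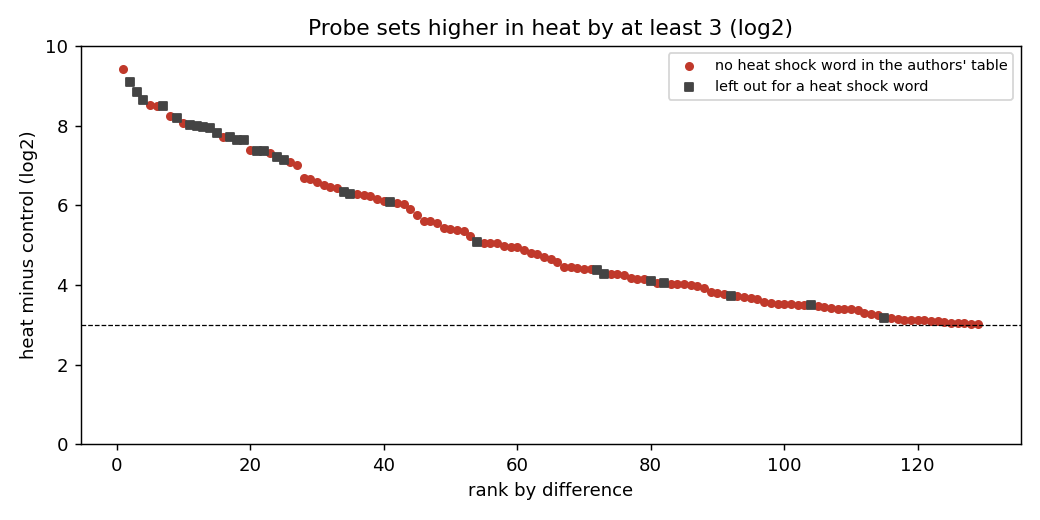
The 129 probe sets with a difference of at least 3, ordered by size along the horizontal axis, with heat minus control (log2) on the vertical axis and the threshold of 3 as a dashed line. Red circles are the 101 without a heat shock word and dark squares the 28 left out, of which 21 reach 5 or more.

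Of the 45 named probe sets, 12 were placed under protein folding and stress of the endoplasmic reticulum, with differences of 3.10 to 7.32. Roles were assigned to the named members alone. No share of folding genes over all probe sets was counted, so the number 12 is a description of how the members were sorted. Hop3 (AT4G12400), a co-chaperone that hands client proteins between HSP70 and HSP90, gave 9.55, 9.58 and 9.57 on the heat arrays and 2.64, 1.74 and 2.35 on the control arrays, a difference of 7.32. ATERDJ3A (AT3G08970), a J-domain protein of the endoplasmic reticulum, gave 8.45, 8.68 and 8.44 in heat and 1.97, 1.97 and 1.85 in control (6.59). Fes1A (AT3G09350), a nucleotide exchange factor of HSP70, gave 9.62, 9.93 and 9.70 in heat and 3.38, 2.96 and 3.51 in control (6.47). Each of these 3 chaperone partners had heat values above 8 and control values below 4 on every array. TIN1 (AT5G64510), a gene induced when the endoplasmic reticulum is under folding stress, gave 7.79, 8.03 and 7.59 in heat and 1.42, 1.42 and 1.74 in control (6.28).

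The organelle disaggregases, ATPases that pull aggregated proteins apart, were both in the set. CLPB4 (AT2G25140), the mitochondrial form, gave 8.30, 8.32 and 8.11 in heat against 3.51, 3.29 and 3.06 in control (4.96). CLPB3 (AT5G15450), the plastid form, gave 10.56, 10.63 and 10.44 in heat against 5.94, 5.72 and 5.88 in control (4.70). In neither did the groups come near each other, and the 3 replicates of a group lay close together. HSA32 (AT4G21320), a protein that prolongs acquired thermotolerance, gave 8.31, 8.72 and 8.36 in heat against 4.27, 3.82 and 3.34 in control (4.66). MGE2 (AT4G26780), the mitochondrial GrpE-type exchange factor, gave 7.53, 7.53 and 7.31 in heat against 3.56, 2.74 and 3.56 in control (4.17).

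Further folding genes had smaller differences, and their heat and control arrays still did not overlap. SGT1A (AT4G23570), a partner of HSP90 in disease resistance, gave 8.75, 8.73 and 8.67 in heat against 4.41, 4.38 and 4.89 in control (4.16). TPR10 (AT3G04710), which carries tetratricopeptide repeats, gave 7.04, 7.54 and 7.39 in heat against 3.76, 3.41 and 3.49 in control (3.77), while a second probe set that it shares with another locus differed by -0.09. DJC66 (AT3G13310) gave 8.25, 8.42 and 8.55 in heat against 5.50, 4.40 and 4.83 in control (3.50). BOB1 (AT5G53400), a small chaperone with a NudC domain that development also needs, gave 7.91, 8.11 and 7.77 in heat against 5.14, 4.35 and 5.01 in control (3.10).

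Relatives of these genes were taken by family name and tested with limma, with p-values adjusted over all 22746 probe sets. In that test 2.34% of all probe sets, strong rises among them, rose and 4.00% fell. Relatives that were themselves strong rises were left out of the counts of relatives. Hop2, a sister of Hop3, rose to 7.98 ± 0.14 in heat, against 5.56 ± 0.31 in control (SD, n = 3 arrays each; difference 2.42, SE 0.17, limma adjusted p = 0.00017). The relatives that follow did not pass. SGT1B differed by 0.19 (SE 0.11, limma adjusted p = 0.367), CLPB2 by 0.20 (adjusted p = 0.381), FES1B by 0.41 (adjusted p = 0.215) and FES1C by 0.18 (adjusted p = 0.647). No test set these differences against those of their strong sisters, which were chosen on the same contrast.

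Of 5 genes of proteolysis, EGY3 had the largest difference. EGY3 (AT1G17870), a plastid relative of site-2 metalloproteases, gave 8.78, 8.64 and 8.85 in heat against 2.28, 2.78 and 2.51 in control (6.23). FBS1 (AT1G61340), an F-box protein of stress responses, gave 7.60, 7.90 and 7.93 in heat against 1.86, 2.23 and 2.49 in control (5.61). RBL14 (AT3G17611), a rhomboid-like protein, gave 8.11, 8.29 and 8.36 in heat against 4.09, 3.41 and 3.52 in control (4.58). The 3 heat arrays of each lay close together and far above its control arrays. DER1 (AT4G29330), a Derlin that draws misfolded proteins out of the endoplasmic reticulum, gave 7.79, 8.05 and 7.85 in heat against 4.61, 4.26 and 4.59 in control (3.41), while its second probe set stayed near the bottom of the range, at 1.43, 1.58 and 1.69 in heat and 1.35, 1.35 and 1.05 in control (0.31). RHA2B (AT2G01150), a RING-type ubiquitin ligase in abscisic acid signalling, gave 7.33, 8.19 and 7.99 in heat against 5.0, 4.54 and 4.86 in control (3.04), just above the threshold.

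In the families and lists tested beside these genes, other genes moved in both directions. AT5G18340, on the list of ubiquitin and ubiquitin ligase genes, rose to 4.46 ± 0.21 in heat, against 2.23 ± 0.09 in control (2.23, SE 0.14, adjusted p = 6.37e-05). Among 14 tested proteases of plastid membranes, FTSH6 rose by 0.86 (adjusted p = 0.0231) and EGY1, measured by a shared probe set, fell by 0.94 (adjusted p = 0.0093), while the other 12 did not pass. FTSH6 means were 2.82 in heat and 1.96 in control, and with no detection call the control level cannot be told from background. Of 5 tested RHA relatives of RHA2B, RHA3A fell by 1.40 (adjusted p = 0.00832), RHA2A fell by 1.36 (adjusted p = 0.0367) and the other 3 did not pass. All 5 were lower in heat (differences of -1.40 to -0.32), each at an unadjusted limma p below 0.05. No share of all probe sets at that unadjusted level was counted, so counts at it, here and below, are a description. Of 10 tested rhomboid-like relatives of RBL14, RBL1 fell by 0.49 (adjusted p = 0.043) and the others did not pass. Of 10 tested genes on the list of ubiquitin and ubiquitin ligase genes, AT5G18340 was the only one that passed. The 2 Derlins tested beside DER1 and the 2 relatives of FBS1 did not pass by limma, with 1 of each at an unadjusted p below 0.05. The calls of FTSH6, EGY1 and RHA2A were each lost when some single arrays were left out, and that of RBL1 was lost in 10 of 11 alternatives, scaling and moderation among them.

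The 11 genes of transcription, the clock and splicing spanned differences of 3.03 to 5.75. EPR1 (AT1G18330), a MYB-like factor of the REVEILLE group, gave 7.57, 7.82 and 7.35 in heat against 1.85, 1.81 and 1.85 in control (5.75). SR45a (AT1G07350), a splicing factor of the SR-like class, gave 10.54, 10.65 and 10.55 in heat against 5.64, 5.35 and 5.62 in control (5.04). RHL41 (AT5G59820), a zinc finger factor of oxidative and light stress also called ZAT12, gave 8.14, 8.10 and 7.91 in heat against 3.16, 2.84 and 3.29 in control (4.95). Control values of EPR1 were nearly equal on all 3 arrays (SD 0.02), and its heat values were more spread (SD 0.24).

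Several other regulators had smaller differences. NLP4 (AT1G20640), of the NIN-like factors that serve nitrate signalling, gave 6.80, 6.93 and 6.94 in heat against 2.63, 2.52 and 2.72 in control (4.27). AZF3 (AT5G43170), a zinc finger repressor, gave 7.75, 7.75 and 7.24 in heat against 3.51, 3.84 and 3.28 in control (4.04). NF-YC2 (AT1G56170), a subunit of the CCAAT-binding complex, gave 7.09, 7.16 and 7.12 in heat against 3.49, 3.39 and 3.79 in control (3.57). None of these 3 had a heat array within 3 log2 units of a control array. STZ (AT1G27730), a zinc finger repressor also called ZAT10, gave 6.84, 6.53 and 6.70 in heat against 3.0, 3.40 and 4.16 in control (3.17). ATAF1 (AT1G01720), a NAC factor, gave 9.18, 9.22 and 9.18 in heat against 6.41, 5.38 and 6.62 in control (3.06). DOF4.1 (AT4G00940), a Dof zinc finger factor, gave 5.83, 5.86 and 5.61 in heat against 2.50, 3.33 and 2.32 in control (3.05).

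The clock genes LNK1 and PRR7 were in the set at its lower end. LNK1 (AT5G64170), a coactivator of evening genes, gave 5.07, 5.68 and 5.34 in heat against 2.03, 2.0 and 1.89 in control (3.39). PRR7 (AT5G02810), a repressor of the morning clock genes, gave 4.81, 4.81 and 4.86 in heat against 1.68, 1.80 and 1.93 in control (3.03), the smallest difference that qualified. Both were dim without heat. Related factors were tested with limma. RVE1 rose to 4.88 ± 0.05 in heat, against 2.71 ± 0.37 in control (2.17, SE 0.18, adjusted p = 0.000432). CCA1, the morning clock factor, rose by 0.76 (SE 0.13, adjusted p = 0.0143), the other 4 REVEILLE relatives did not pass, and LNK3 rose by 0.54 (adjusted p = 0.037). LNK3 means of 2.4 in heat and 1.9 in control both lay below the median of every array. With no detection call, such levels cannot be told from background. NF-YC3 rose by 0.86 (adjusted p = 0.0395) and NF-YB2 fell by 1.51 (SE 0.25, adjusted p = 0.0122), while 0 of 8 NIN-like relatives of NLP4 passed limma's threshold (1 at an unadjusted p below 0.05). NF-YB2 was the only one of 6 tested genes on the NF-Y list to pass, and LNK3 the only one of 7 on the clock list. The 5 tested DOF relatives and the 2 ATAF-type NAC relatives did not pass, and 0 of them had an unadjusted p below 0.05. The calls of CCA1, LNK3, NF-YC3 and NF-YB2 were lost when some single arrays were left out.

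**Figure D3:**
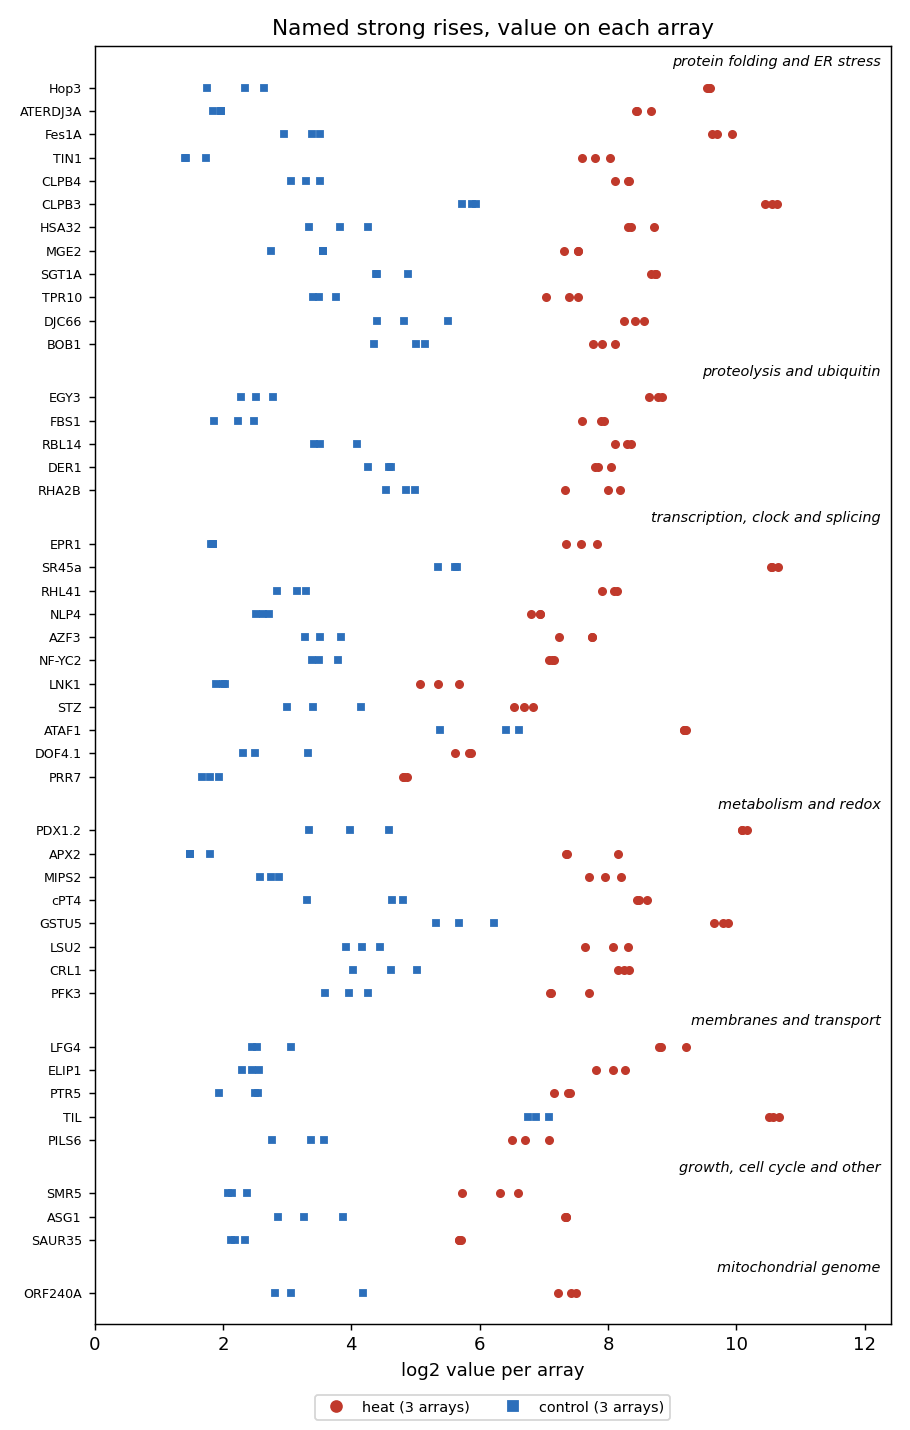
Log2 value on each array (horizontal axis) for the 45 named strong rises, grouped by role down the page, with red circles for the 3 heat arrays and blue squares for the 3 control arrays. In every row the 3 heat values lie to the right of the 3 control values, as the choice requires. Hop3, ATERDJ3A and Fes1A show the widest gaps among the folding genes, and TIL has the highest control level.

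Metabolic and redox genes numbered 8. PDX1.2 (AT3G16050), a member of the vitamin B6 synthase family that lacks catalytic activity, gave 10.16, 10.09 and 10.09 in heat against 4.58, 3.34 and 3.98 in control (6.15). APX2 (AT3G09640), a cytosolic ascorbate peroxidase that removes hydrogen peroxide, gave 7.34, 8.16 and 7.36 in heat against 1.49, 1.81 and 1.49 in control (6.03). MIPS2 (AT2G22240), which makes the precursor of myo-inositol, gave 7.71, 8.20 and 7.95 in heat against 2.57, 2.87 and 2.75 in control (5.22). APX2 was near the lower end of the array range without heat.

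Differences of the other metabolic genes lay between 3.37 and 4.26. cPT4 (AT5G58770), a cis-prenyltransferase of isoprenoid chains, gave 8.60, 8.45 and 8.48 in heat against 4.81, 3.31 and 4.63 in control (4.26). GSTU5 (AT2G29450), a tau class glutathione transferase, gave 9.86, 9.64 and 9.79 in heat against 5.32, 5.68 and 6.22 in control (4.03). LSU2 (AT5G24660), a small protein of the sulfur starvation response, gave 8.31, 7.64 and 8.08 in heat against 4.16, 3.91 and 4.45 in control (3.83). The control values of cPT4 were the most spread of these, with replicate 2 the lowest. CRL1 (AT2G33590), a reductase related to cinnamoyl-CoA reductases, gave 8.25, 8.32 and 8.16 in heat against 4.61, 4.02 and 5.02 in control (3.69). PFK3 (AT4G26270), a phosphofructokinase of glycolysis, gave 7.11, 7.71 and 7.10 in heat against 3.59, 4.26 and 3.97 in control (3.37).

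Relatives of these metabolic and redox genes mostly stayed short of the threshold. The catalytic vitamin B6 synthases PDX1.1 (shared probe set) and PDX1.3 differed by -0.61 (adjusted p = 0.0653) and -0.21 (adjusted p = 0.371), and 0 of the 5 tested genes of that list passed limma's threshold (1 at an unadjusted p below 0.05). Of 7 tested ascorbate peroxidases other than APX2, 0 passed (2 at an unadjusted p below 0.05). MIPS1 differed by 0.30 (adjusted p = 0.465) and MIPS3 by 0.74 (adjusted p = 0.0566), LSU1 by 0.60 (adjusted p = 0.181) and LSU4 by 0.41 (adjusted p = 0.139). Of 27 tested relatives of GSTU5, GSTU1 fell and the others did not pass (GSTU1 fell by 1.80, SE 0.31, adjusted p = 0.0145, a call lost without any 1 heat array). The 6 tested phosphofructokinases beside PFK3 did not pass (2 at an unadjusted p below 0.05), nor did the 6 cis-prenyltransferases beside cPT4 (0 at an unadjusted p below 0.05). Of the latter, cPT5, cPT6, AT5G58784, cPT8 and CPT had heat and control means below the median of every array. With no detection call, such levels cannot be told from background.

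Membrane and transport genes numbered 5. LFG4 (AT1G03070), of the LIFEGUARD family of cell death suppressors, gave 8.83, 9.22 and 8.80 in heat against 3.05, 2.54 and 2.45 in control (6.27). ELIP1 (AT3G22840), an early light-inducible protein that binds chlorophyll in the thylakoid, gave 7.81, 8.26 and 8.07 in heat against 2.30, 2.46 and 2.56 in control (5.61), in seedlings that were in darkness. PTR5 (AT5G01180), a dipeptide transporter, gave 7.16, 7.37 and 7.41 in heat against 2.54, 1.94 and 2.50 in control (4.98). These 3 were all dim in control. TIL (AT5G58070), a temperature-induced lipocalin, gave 10.50, 10.56 and 10.66 in heat against 6.76, 7.08 and 6.88 in control (3.67), and so had the highest control mean of the 101. PILS6 (AT5G01990), an auxin carrier of the endoplasmic reticulum, gave 6.70, 7.08 and 6.5 in heat against 3.58, 2.76 and 3.38 in control (3.52).

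Their families include further rises. LFG2 rose to 8.34 ± 0.23 in heat, against 5.74 ± 0.47 in control (2.60, SE 0.24, adjusted p = 0.000654). BI-1, the Bax inhibitor, a cell death suppressor of the endoplasmic reticulum, rose to 8.82 ± 0.08 in heat, against 6.60 ± 0.39 in control (2.23, SE 0.19, adjusted p = 0.0005). They were 2 of 5 tested genes of the Bax inhibitor and LIFEGUARD list. ELIP2 rose to 5.51 ± 0.16 in heat, against 3.87 ± 0.44 in control (1.64, SE 0.22, adjusted p = 0.00501). The 4 tested relatives of PTR5 and the 4 of PILS6 did not pass limma's threshold, with 1 and 2 of them at an unadjusted p below 0.05.

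Among growth genes, SMR5 (AT1G07500), an inhibitor of cyclin-dependent kinases, gave 5.73, 6.60 and 6.31 in heat against 2.14, 2.38 and 2.08 in control (4.02). ASG1 (AT2G24100) gave 7.34, 7.32 and 7.34 in heat against 2.85, 3.27 and 3.87 in control (4.01). SAUR35 (AT4G12410), of the small auxin-up RNA family of growth genes, gave 5.68, 5.67 and 5.72 in heat against 2.19, 2.35 and 2.12 in control (3.47). ORF240A, a reading frame of the mitochondrial genome, gave 7.43, 7.22 and 7.5 in heat against 3.06, 2.82 and 4.18 in control (4.03). In all 4, every heat array lay more than 2 log2 units above every control array.

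For SMR5 and SAUR35, most relatives that passed went the other way. Of 3 tested relatives of SMR5, SMR1 fell by 1.47 (adjusted p = 0.000882) and SIM fell by 0.73 (adjusted p = 0.0467, a call lost under most alternatives). The other relative was higher in heat by 0.31 and did not pass. All 3 had an unadjusted limma p below 0.05. Of 54 tested SAUR relatives, 9 fell (16.7%, against 4.00% of all probe sets), 1 rose (1.85%, against 2.34%) and 44 did not pass. SAUR56 rose to 3.41 ± 0.17 in heat, against 2.27 ± 0.11 in control (1.13, adjusted p = 0.00221). SAUR6 fell to 5.27 ± 0.35 in heat, against 7.25 ± 0.20 in control (-1.98, SE 0.20, adjusted p = 0.00108), and SAUR32 fell by 1.77 (SE 0.22, adjusted p = 0.00362). SAUR59 fell by 1.57 (adjusted p = 0.0122), a call lost without heat replicate 2, without heat replicate 3 and with the replicate block.

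**Figure D4:**
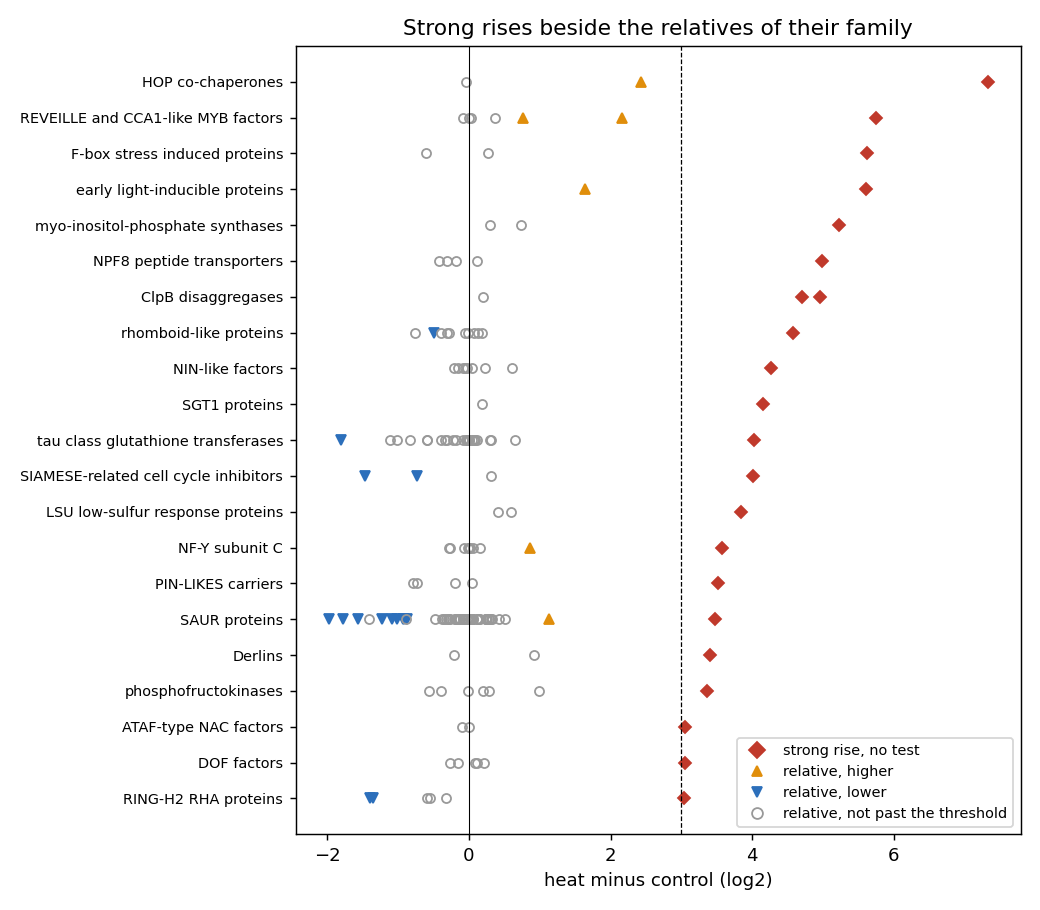
Heat minus control (log2, horizontal axis) for the members of each family, with red diamonds for the strong rises without a test, orange triangles for relatives that rose, blue triangles for relatives that fell and open grey circles for relatives that did not pass limma's threshold of 0.05 on adjusted p. The dashed line marks the difference of 3. Relatives lie below it by the way they were defined, and among these families, which leave out the pathway lists, Hop2 (2.42) is the rising relative nearest to it.

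Over all 156 tested family relatives, 6 rose (3.85%), 15 fell (9.62%) and 135 did not pass, with a median difference of -0.02, against -0.01 over all probe sets. Over all probe sets, strong rises among them, 2.34% rose and 4.00% fell. SAUR proteins made up 54 of the 156 relatives and 9 of the 15 falls, so the share of falls rests largely on 1 family. Over the 93 tested genes of the pathway lists, 8 rose (8.60%), 2 fell (2.15%) and 83 did not pass, with a median of 0.07. The lists were written with earlier results of these data known, and the families were chosen after the data were seen. The shares of both are thus a description, also where they stand beside those of all probe sets. An unadjusted limma p below 0.05 was found for 48 of the 156 relatives and 29 of the 93 list genes. In the ERF subgroup A-6, RAP2.4 rose to 7.69 ± 0.14 in heat, against 5.73 ± 0.46 in control (1.96, SE 0.22, adjusted p = 0.00221) and AT1G22190 rose by 1.37 (adjusted p = 0.0272, a call lost without single arrays), 2 of 9 tested. AT4G39520, one of the DRG GTP-binding proteins, rose by 1.06 (SE 0.16, adjusted p = 0.00831). Of 11 tested aldo-keto and aldehyde reductases 0 passed limma's threshold (1 at an unadjusted p below 0.05), and of 9 genes of mitochondrial stress 0 passed (2 at an unadjusted p below 0.05). Counts of falls in particular depend on single arrays, as given among the alternatives.

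The loci without a name in either source hold 8 of the 10 largest differences and 15 of the 25 largest. A missing name does not mark an unknown gene, since such loci include small heat shock proteins, as given above as background. The largest difference of all, 9.41, belongs to a probe set that points to several loci. That probe set gave 11.70, 11.82 and 11.70 in heat against 2.05, 2.59 and 2.36 in control. AT1G53540 gave 10.56, 10.53 and 10.49 in heat against 2.19, 2.11 and 1.75 in control (8.51). AT1G52560 gave 10.30, 10.51 and 10.32 in heat against 2.04, 1.68 and 1.92 in control (8.50). Their 3 heat values were nearly equal and lay near the top of the array range, while all control values lay near its bottom. AT1G54050 gave 10.77, 10.90 and 10.80 in heat against 2.38, 2.72 and 2.68 in control (8.23). AT5G37670 gave 10.24, 10.29 and 10.34 in heat against 2.09, 2.57 and 2.02 in control (8.06). AT2G29500 gave 10.99, 10.91 and 11.04 in heat against 3.24, 3.25 and 3.29 in control (7.72).

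The next loci had somewhat smaller differences. AT1G71000 gave 9.02, 9.29 and 8.79 in heat against 1.79, 1.59 and 1.59 in control (7.38). AT1G66080 gave 9.38, 9.47 and 9.52 in heat against 2.32, 2.41 and 2.35 in control (7.10). AT2G20560 gave 9.69, 9.86 and 9.62 in heat against 2.70, 2.56 and 2.84 in control (7.02). These 3 were low in every control array. AT5G25450 gave 10.10, 10.24 and 9.96 in heat against 3.80, 2.75 and 3.68 in control (6.69). AT5G10695 gave 10.04, 10.16 and 9.95 in heat against 3.63, 2.95 and 3.59 in control (6.66). AT5G51440 gave 10.60, 10.76 and 10.50 in heat against 3.49, 3.44 and 5.43 in control (6.5), with the highest control SD of the set (1.13) where control replicate 3 stood above the other two. AT1G30070 gave 10.06, 10.02 and 9.89 in heat against 3.79, 2.92 and 3.97 in control (6.43).

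The differences near 6 include that of AT5G07330, with 7.47, 7.74 and 8.08 in heat against 1.55, 1.69 and 1.74 in control (6.10). AT5G47610 gave 10.44, 10.37 and 10.57 in heat against 4.16, 4.62 and 4.43 in control (6.06). AT5G35320 gave 10.13, 10.18 and 10.17 in heat against 4.24, 4.19 and 4.29 in control (5.92). AT5G47610 and AT5G35320 had control values above 4 on every array. The remaining 37 loci without a name had differences of 3.03 to 5.57, heat means of 5.24 to 10.41 and control means of 1.82 to 6.44. AT5G53680 had the highest heat SD of the 101 (1.16). The 3 further probe sets that point to several loci or to an unmatched gene had differences of 3.52, 3.30 and 3.11.

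The median gene length was 1794 bp over the loci of the set, against 2289 bp over 20146 other loci on the array, a description with no test. At the threshold, the members just inside were PRR7 (3.03), AT2G27580 (3.03), AT1G66510 (3.04), RHA2B (3.04) and DOF4.1 (3.05). Just outside lay a probe set of several loci (2.98), AT5G11680 (2.91), SKP2B (2.87), XTR6 (2.85) and AT1G58170 (2.85), and the values run on without a break across the line. By same-numbered replicates, the median difference of the set was 4.34, 4.62 and 4.01 for replicates 1, 2 and 3, and 11, 3 and 15 of the 101 lay under 3 in those pairs.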

How the data were processed

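Total RNA of 6 samples was hybridized to Affymetrix arrays. The authors deposited log2 values per probe set, made with RMA per the submitters' processing notes, and a second table with the same log2 values and linear ratios of each heat array over the same-numbered control array. The sources used here do not name a software version, a background step or an annotation build. RMA equalizes arrays, so a shift of all genes would not show, though array medians still differed slightly between the groups. The 64 control probe sets were left out of 22810. The deposited values were not rescaled.

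The rule was applied to those values, with words matched at the start of a word in the authors' symbols and titles. Members and lists were chosen with earlier results of these data known, so members get no test and the shares over lists are a description. Other genes were tested on the log2 scale by the moderated test of limma (version 3.58.1, R 4.3.3, group as the only term, two-sided, Benjamini-Hochberg over 22746 probe sets, threshold 0.05), which was tested on simulated data. SDs are between arrays, SEs are limma's. Each locus was read from its brightest own probe set, or a shared one where it had no other.

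Named are all members with a known gene name, the 25 largest and the 5 on each side of the threshold. Of the other genes past the threshold, up to 2 rises and 2 falls of each list and family, the 5 largest of each over all families and the 5 largest of each among neighbours were named. The 10 relatives named whatever their value and the families by RefSeq naming replaced a planned search by protein sequence and were chosen after the data were seen, and 2 loci that only share a symbol with a family were left out. That search and the promoter motif shares were not run, since sequences were not used here. Alternatives were scaling, dim-value filters, exclusion words, moderation, the replicate block and leaving out each array.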

Additional observations from a re-analysis of the deposited data

How the results depend on the processing

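The choice of the 101 was little changed by processing: it gave 92 to 103 probe sets under centring, quantile normalization, 2 floors for dim values and other matching of the words, and 93 to 103 when an array was left out, while the authors' ratio of at least 8 in each same-numbered pair gave 78. Test counts depended on single arrays. Leaving out 1 array in turn gave 371 to 1008 probe sets higher (533 with all arrays) and 275 to 2719 lower (909), 5 to 10 list genes higher (8) and 0 to 5 lower (2), 4 to 11 family relatives higher (6) and 8 to 28 lower (15), and 1 to 12 neighbours higher (6) and 1 to 15 lower (6). The highest of each came without control replicate 2, and leaving out any of the other 5 arrays gave 275 to 493 lower probe sets. With the replicate number as a block, 410 probe sets were lower and 396 higher, 5 list genes were higher, 8 family relatives were lower, and 1 neighbour was higher and 3 lower. Deviations of same-numbered arrays from their group means correlated at -0.26, -0.235 and -0.244. Deviations from a mean of 3 arrays are tied to each other, so these values cannot decide whether the arrays were handled in pairs. Of 44 genes named outside the set, 19 lost their call in at least 1 alternative and 15 kept it in every alternative that held the gene. The filter on dim probe sets removed SAUR56, 1 of these 15. The other 10 did not pass with all arrays, of which PDX1.1, MIPS3 and LSU4 passed in some alternatives. FES1C ranged from -0.015 (without control replicate 2) to 0.406 (without control replicate 3) and passed in neither. The cause was not tested. The search of RefSeq names, the families and the neighbours were chosen after seeing the data. The planned promoter motif and closest relative alternatives were not run. Signal over background limits all differences from dim control values, since no detection call was given.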

Other observations

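The protein-coding genes next to the strong rises on the TAIR10.1 chromosomes were mostly not called. Of 191 neighbouring loci, 5 were themselves strong rises and 150 others were tested with limma, of which 6 rose (4.00%), 6 fell (4.00%) and 138 did not pass, with a median difference of 0.04. Over all probe sets, the 129 strong rises among them, 2.34% rose and 4.00% fell. Strong rises were left out of the tested neighbours, so the 2 shares of rises are not on the same footing. The share of falling neighbours equals that of all probe sets, and the genes named next are given as single values. EYE, beside AT5G51440, rose to 6.30 ± 0.07 in heat, against 5.0 ± 0.07 in control (1.3, SE 0.10, limma adjusted p = 0.00035). AT5G64180, beside LNK1, rose by 1.28 (adjusted p = 0.0183), AT4G21310, beside HSA32, by 0.89 (adjusted p = 0.0494) and AT2G20550, beside AT2G20560, by 0.79 (adjusted p = 0.0199). HSFA6B, a heat shock factor beside ELIP1, rose by 0.54 (adjusted p = 0.0393). Its means of 1.91 in heat and 1.37 in control both lay below the median of every array. With no detection call, such levels cannot be told from background. SKU5, beside SAUR35, fell to 6.27 ± 0.09 in heat, against 7.33 ± 0.05 in control (-1.06, SE 0.10, adjusted p = 0.00109). PME1, beside Hop3, fell by 1.52 (adjusted p = 0.0152), DGR2, beside AT5G25450, by 1.29 (adjusted p = 0.0191) and AT3G07080, beside AT3G07090, by 0.94 (adjusted p = 0.0453). GSTU1, next to AT2G29500, fell by 1.80 (adjusted p = 0.0145). Calls other than those of EYE and SKU5 were lost without some single arrays. Adjacent pairs of strong rises numbered 3, which were AT1G66080 with AT1G66090, Hop3 with SAUR35, and AT1G74320 with a gene left out for its heat shock word.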
